A study of Homo sapiens with 12 samples.

Results

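NDUFA4L2 and 8 genes of the hypoxia-inducible factor (HIF) pathway (HIF1A, EPAS1, ARNT, EGLN1, EGLN3, VHL, CA9 and NDRG1) are described here, 9 of the 32077 genes in the count table. They were taken from the table by gene name. The list was chosen with the RNA-seq results of these samples known, since NDUFA4L2 was selected on its change with pentamidine and ranked 1 by log2 fold change among the 14313 genes tested in DU145 cells and 51 among the 13861 tested in PC3 cells. The other 8 genes were added for their place in the pathway. Therefore, the values of the 9 genes with pentamidine are given as a description, without p-values, and the intervals printed for summed counts describe counting error. PC3 and DU145, both androgen-independent, are established lines of human prostate cancer cells and are wild type per the labels. Each line was kept for 48 hours with 2.5 μmol/L pentamidine, an antiprotozoal drug, or with vehicle, which gave 4 groups of 3 samples. The labels do not say whether the 3 samples of a group were grown from separate cultures, so the p-values measure the spread between these samples, which may be technical.

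Cells sense oxygen through the α subunits of HIF, encoded by HIF1A and EPAS1 (HIF-2α). With oxygen, the prolyl hydroxylases EGLN1, EGLN2 and EGLN3 modify the α subunits and VHL, part of a ubiquitin ligase, marks them for degradation. Without oxygen the α subunits are kept, pair with ARNT and bind DNA at sites with the core ACGTG or GCGTG. Much of this control acts on the protein, which mRNA levels do not show. NDUFA4L2, a mitochondrial protein related to the respiratory chain subunit NDUFA4, CA9, an enzyme of the cell surface that sets pH, and NDRG1, a stress-response protein, are known targets of the pathway.

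Total counts ranged from 13514195 to 15131436 per sample. The epithelial keratin KRT18 was read at 2125 to 3085 counts in PC3 cells and 9962 to 13423 in DU145 cells, and KRT8 at 238 to 307 and 25835 to 38812 counts. The other epithelial markers, EPCAM and CDH1, were at no more than 2 and 10 counts in any sample, so that the epithelial label rests on the keratins. PTPRC of leukocytes was at no more than 1 count, COL1A2 of fibroblasts and KLK3 of luminal prostate cells at no more than 2, PECAM1 of endothelium at no more than 10, and COL1A1 of fibroblasts at 3 to 12 counts in PC3 and 25 to 40 in DU145 cells. The share of counts on mitochondria-encoded genes was 3.79–3.91% with vehicle and 2.66–2.76% with pentamidine in PC3 cells, and 4.41–4.66% and 1.97–2.07% in DU145 cells. When those genes were left out of the scaling, the log2 fold changes of NDUFA4L2 were 2.80 in PC3 and 3.87 in DU145 cells. The vehicle-treated PC3 samples differed from each other more than those of the other groups, since their pairs had 3.64 to 7.3 as the chi-square averaged over genes and pairs of the other groups had 1.72 to 3.13, and sample 1 was in both of the widest pairs. In whole cultures, a fall in the number of cells with a transcript and a fall in the transcript per cell cannot be told apart.

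The 250 bases before the transcription start are printed for EPAS1, EGLN1 and CA9 (RefSeq sequence, build GRCh38.p14, each 5′ to 3′ on the gene's own strand). All of these windows held ACGTG or GCGTG, and windows without either are not printed. Capitals mark ACGTG or GCGTG, or their reverse complements CACGT and CACGC where the match lies on the other strand.
EPAS1, chr2:46297157-46297406, plus strand: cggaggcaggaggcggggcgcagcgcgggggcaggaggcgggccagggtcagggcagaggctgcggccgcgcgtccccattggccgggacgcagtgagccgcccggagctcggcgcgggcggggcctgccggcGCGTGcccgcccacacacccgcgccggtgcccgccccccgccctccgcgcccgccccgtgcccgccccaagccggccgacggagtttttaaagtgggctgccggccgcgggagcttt
EGLN1, chr1:231422288-231422537, minus strand: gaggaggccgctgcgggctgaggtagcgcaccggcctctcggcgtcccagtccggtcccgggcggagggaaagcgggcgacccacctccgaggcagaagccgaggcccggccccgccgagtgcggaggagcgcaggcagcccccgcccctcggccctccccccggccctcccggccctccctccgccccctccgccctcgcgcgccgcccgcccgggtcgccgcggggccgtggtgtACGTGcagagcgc
CA9, chr9:35673678-35673927, plus strand: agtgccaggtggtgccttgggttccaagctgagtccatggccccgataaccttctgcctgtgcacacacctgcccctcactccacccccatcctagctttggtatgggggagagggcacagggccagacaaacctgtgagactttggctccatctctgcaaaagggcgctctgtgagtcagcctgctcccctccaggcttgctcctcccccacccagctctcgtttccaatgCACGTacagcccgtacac
Windows in the RefSeq table were examined for 6 of the 9 genes, and none was examined for NDUFA4L2, VHL or NDRG1. EPAS1 had GCGTG 117 bases before its start, and ACGTG lay 13 bases before the start in EGLN1 and 18 in CA9. One of the 2 windows of HIF1A held GCGTG, and those of ARNT and EGLN3 held neither motif. Among 35116 windows of 250 bases in the table, 18.5% held ACGTG, 32.2% held GCGTG and 43.2% held at least one of them. A match of these letters is a description of the sequence and not a measured binding site.

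NDUFA4L2 (ENSG00000185633, chr12:57234903-57240715, minus strand, GRCh38) was low with vehicle and higher with pentamidine in both lines. In PC3 cells, 11, 12 and 16 reads were counted with vehicle and 72, 119 and 81 with pentamidine. In DU145 cells, the counts were 1, 2 and 0 with vehicle and 12, 15 and 23 with pentamidine. In neither line did a treated sample overlap with a vehicle sample. As CPM (counts scaled to library size with TMM factors), vehicle-treated PC3 cells had 0.900 ± 0.242 and pentamidine-treated PC3 cells 6.26 ± 1.93 (SD, n = 3), and DU145 cells had 0.0715 ± 0.0700 and 1.16 ± 0.389. Thus the highest level was in pentamidine-treated PC3 cells, the level in pentamidine-treated DU145 cells and vehicle-treated PC3 cells overlapped, and vehicle-treated DU145 cells were lowest.

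The log2 fold change of NDUFA4L2 was 2.80 ± 0.28 in PC3 and 3.87 ± 0.64 in DU145 cells (standard error). Here and below, this error is the absolute log2 fold change divided by the square root of F, the statistic of edgeR's test. The counting error of so few reads was wide in DU145 cells. The summed counts, 272 against 39, gave a ratio of 6.99 (exact 95% interval 4.98 to 10.04) in PC3 cells. In DU145 cells, 50 against 3 counts gave a ratio of 16.3 (5.27 to 81.8). The fitted effect in PC3 minus that in DU145 was -1.08 ± 0.83, and it was -1.91 without vehicle sample 2 and -0.52 without vehicle sample 3 of DU145. Without molecular identifiers in the reads, these intervals cover no more than counting error. When each sample was left out in turn, the fold change stayed between 2.52 and 3.03 on the log2 scale in PC3 and between 3.32 and 4.71 in DU145 cells.

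**Figure D1:**
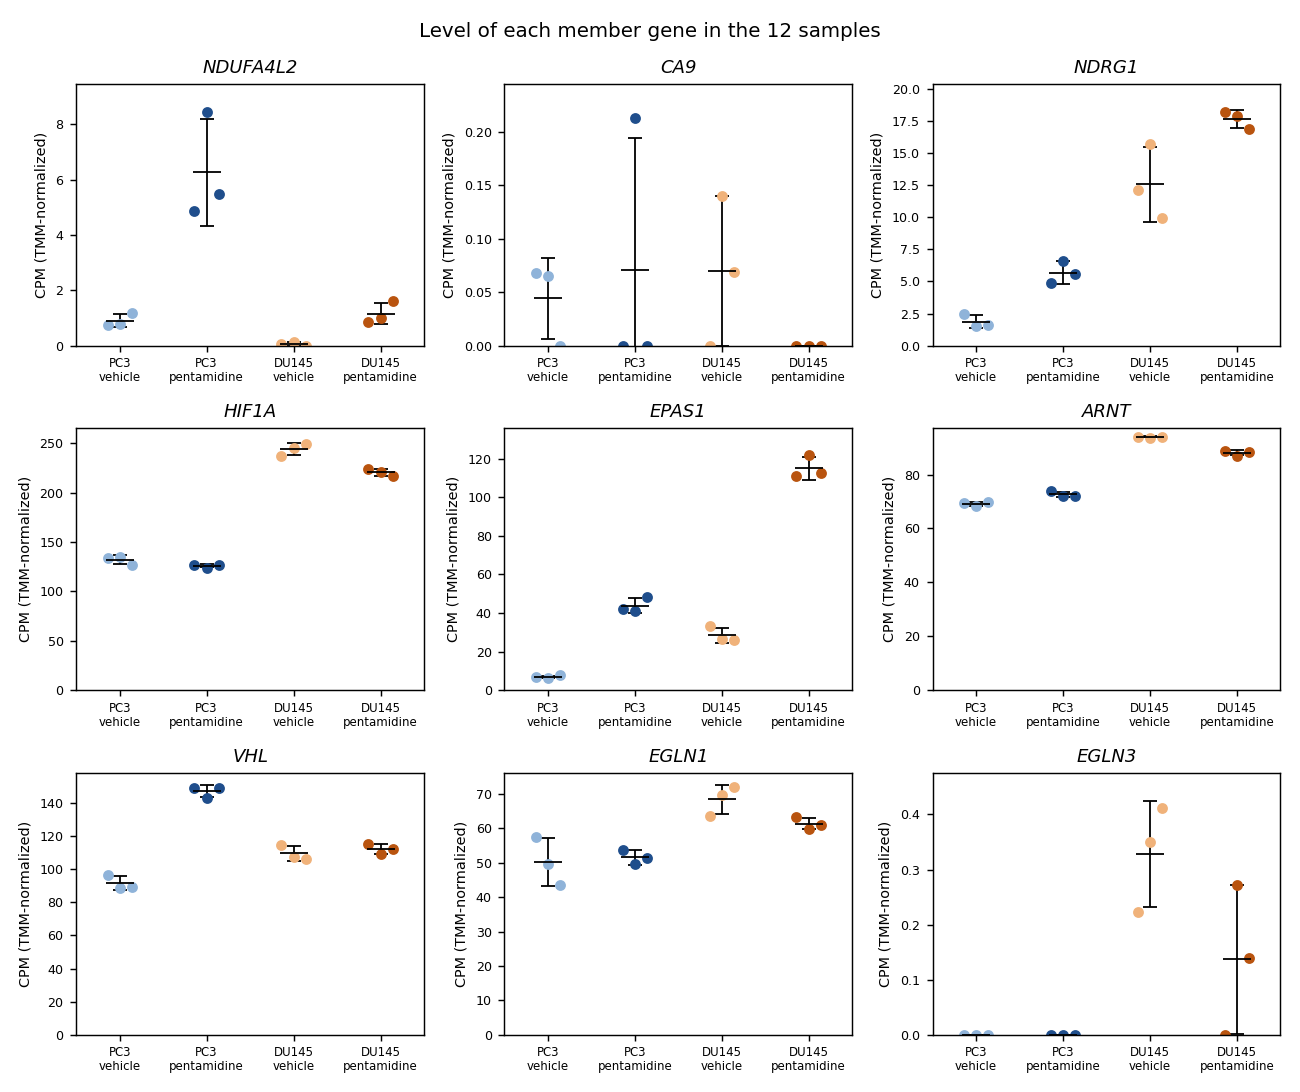
Level of each of the 9 genes in every sample, as CPM with TMM factors on a linear axis that starts at 0 in each panel, with a different range per panel. Points are the 3 samples of a group, the long bar is the mean and the whiskers are the SD. NDUFA4L2 and EPAS1 were higher with pentamidine in both lines, HIF1A, ARNT and EGLN1 had log2 fold changes between -0.15 and 0.08, and CA9 and EGLN3 were at 0 to 6 counts.

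The last exon of NDUFA4L2 lies tail to tail with that of SHMT2, a mitochondrial enzyme of serine and glycine metabolism on the plus strand, and the 2 genes share 33 bases (chr12:57234903-57234935). The paper describes no step that marks the strand. How reads that reach those shared bases were assigned to the 2 genes is not given in the sources used here. SHMT2 was counted at 2870 to 2975 reads in vehicle-treated and 7855 to 8235 in pentamidine-treated PC3 cells, and at 2838 to 3184 and 4454 to 4672 in DU145 cells. It rose by 1.45 ± 0.05 on the log2 scale in PC3 cells (adjusted p = 2.8e-13) and by 0.59 ± 0.03 in DU145 cells (adjusted p = 1.96e-20). NDUFA4L2 went up by more than its neighbour, in PC3 cells from 4.44 ± 1.00 to 11.3 ± 3.33 reads per 1000 reads of SHMT2 and in DU145 cells from 0.348 ± 0.346 to 3.67 ± 1.32 (SD, n = 3). The samples did not overlap in this ratio, with 3.70–5.58 against 9.02–15.2 in PC3 and 0–0.693 against 2.64–5.16 in DU145 cells. The part of SHMT2 reads in the NDUFA4L2 counts was not tested.

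The other genes tested within 100 kb of NDUFA4L2 had log2 fold changes of no more than 1.37. R3HDM2 rose by 0.44 ± 0.09 on the log2 scale in PC3 (adjusted p = 0.000541), compared with 0.30 ± 0.10 in DU145 cells (adjusted p = 0.0204). LRP1, a receptor of the LDL receptor family, rose by 0.40 ± 0.11 (adjusted p = 0.00665) and 0.28 ± 0.06 (adjusted p = 0.000122). NXPH4, read at 3 to 33 counts, showed a log2 fold change of 1.37 ± 0.45 in PC3 (adjusted p = 0.0216), compared with 0.26 ± 0.35 in DU145 cells (adjusted p = 0.622). LRP1-AS and AC137834.2 were at no more than 2 counts in any sample and were not tested. STAC3, at 4 to 16 counts, did not pass the test in either line, with 0.66 ± 0.44 and 0.74 ± 0.44 (adjusted p = 0.248 and 0.195).

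The 2 paralogues of NDUFA4L2 behaved otherwise. NDUFA4 showed a log2 fold change of 0.05 ± 0.10 in PC3 (adjusted p = 0.721), compared with 0.17 ± 0.05 in DU145 cells (adjusted p = 0.00395). C15orf48, also a small mitochondrial protein that can take the place of NDUFA4, fell in PC3 cells from 34–56 to 18–25 counts and in DU145 cells from 233–287 to 60–83. That is a log2 fold change of -1.14 ± 0.27 (adjusted p = 0.0022) and -1.94 ± 0.13 (adjusted p = 8.96e-19). Per length of exon (RPKM), NDUFA4L2 was at 0.321 ± 0.0862 with vehicle and 2.23 ± 0.687 with pentamidine in PC3 cells, C15orf48 was at 2.28 ± 0.556 and 1.02 ± 0.155, and NDUFA4 was at 31.2 ± 5.96 and 32.2 ± 0.975. In pentamidine-treated DU145 cells the RPKM was 0.412 ± 0.139 for NDUFA4L2, 3.44 ± 0.527 for C15orf48 and 27.4 ± 2.06 for NDUFA4. NDUFA4 was therefore the most abundant transcript of the family in all 4 groups, and pentamidine-treated PC3 cells were the one group with more NDUFA4L2 than C15orf48 per length.

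**Figure D2:**
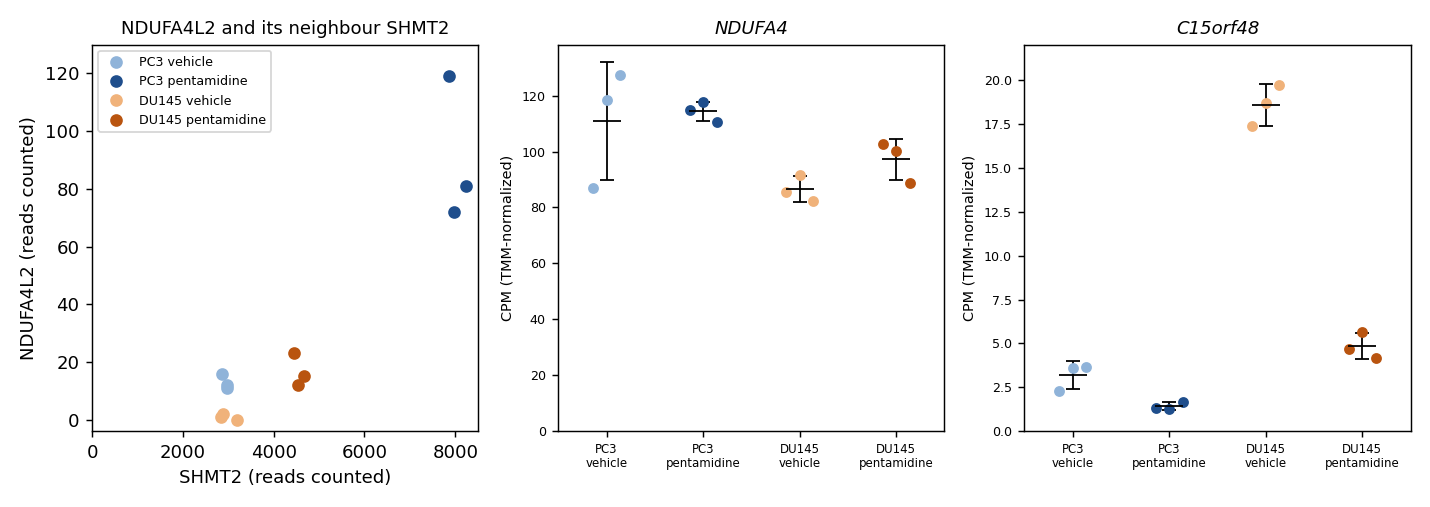
Left, reads counted on NDUFA4L2 against reads counted on its overlapping neighbour SHMT2, with 1 point per sample. Middle and right, NDUFA4 and C15orf48 as CPM with TMM factors on axes that start at 0 (points are samples, the long bar is the mean and the whiskers are the SD, n = 3). NDUFA4L2 counts were highest in pentamidine-treated PC3 cells (72 to 119), NDUFA4 stayed within 1148 to 1831 counts, and C15orf48 was lower with pentamidine in both lines.

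Among the HIF subunits, EPAS1 was higher with pentamidine while HIF1A and ARNT stayed near their vehicle levels. EPAS1 (ENSG00000116016, chr2:46293667-46386703) had 99, 101 and 104 counts in vehicle-treated and 620, 580 and 713 in pentamidine-treated PC3 cells. In DU145 cells it had 443, 376 and 376 counts with vehicle and 1555, 1797 and 1617 with pentamidine. The groups did not overlap in either line, and vehicle-treated DU145 cells were above vehicle-treated PC3 cells but below the treated ones. The log2 fold change was 2.66 ± 0.10 in PC3 and 2.03 ± 0.06 in DU145 cells, a 6.31-fold and a 4.08-fold higher level, and the difference between the lines was 0.63 ± 0.14.

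HIF1A (ENSG00000100644, chr14:61695513-61748259) was counted at 1726 to 2088 reads with vehicle and 1748 to 1885 with pentamidine in PC3 cells, and at 3190 to 3630 and 3124 to 3261 in DU145 cells. Its log2 fold changes were -0.06 ± 0.05 and -0.14 ± 0.03. After scaling, the HIF1A groups overlapped in PC3 cells, and in DU145 cells all pentamidine samples were below all vehicle samples. ARNT (ENSG00000143437, chr1:150809705-150876768), the partner of both α subunits, was at 946 to 1093 counts in PC3 and 1245 to 1368 in DU145 cells. Its log2 fold changes were 0.08 ± 0.06 and -0.09 ± 0.04. After scaling, its groups did not overlap in either line, with pentamidine samples higher in PC3 and lower in DU145 cells. Per length, EPAS1 mRNA was 3.73 ± 0.455% of HIF1A mRNA in vehicle-treated and 24.5 ± 2.03% in pentamidine-treated PC3 cells, and 8.22 ± 1.37% and 36.8 ± 2.00% in DU145 cells (SD, n = 3). The balance of the α subunit transcripts thus moved toward EPAS1 in both lines, with HIF1A still the more abundant in all 12 samples. The relatives ARNT2 and HIF3A differed in level. ARNT2 rose by 0.54 ± 0.06 on the log2 scale in PC3 (adjusted p = 3.39e-06), compared with 0.44 ± 0.08 in DU145 cells (adjusted p = 7.73e-06), and HIF3A was at 0 or 1 count in every sample.

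VHL and EGLN1, which act on the α subunits, had smaller fold changes than EPAS1. VHL (ENSG00000134086, chr3:10141008-10152220) was counted at 1423, 1375 and 1213 reads in vehicle-treated and 2213, 2013 and 2214 in pentamidine-treated PC3 cells, without overlap. In DU145 cells it had 1544, 1535 and 1548 counts with vehicle and 1615, 1610 and 1613 with pentamidine, and after scaling the groups overlapped. The log2 fold change was 0.69 ± 0.05 in PC3 and 0.04 ± 0.04 in DU145 cells, which is a difference of 0.65 ± 0.07.

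EGLN1 (ENSG00000135766, chr1:231363751-231425044) had 847, 765 and 590 counts with vehicle and 798, 697 and 760 with pentamidine in PC3 cells, and these overlapped. In DU145 cells it had 855, 995 and 1046 counts with vehicle and 885, 884 and 880 with pentamidine. After scaling, the pentamidine samples of DU145 were all below the vehicle samples. Its log2 fold changes were 0.04 ± 0.08 and -0.15 ± 0.05, and the first was -0.05 without vehicle sample 3 of PC3. EGLN3 (ENSG00000129521, chr14:33924231-34462774) was at 0 counts in all 6 PC3 samples, which allows up to 0.221 CPM with vehicle and 0.213 with pentamidine (3 counts per library). The deposited interval of EGLN3 overlaps SPTSSA on the same strand, which had a mean of 737 counts, and how reads in shared bases were assigned is not given in the sources used here. In DU145 cells it had 3, 5 and 6 counts with vehicle and 0, 4 and 2 with pentamidine, a ratio of 0.420 for 6 against 14 counts (exact 95% interval 0.132 to 1.16).

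Of the related hydroxylases, EGLN2 did not pass the test in either line, with log2 fold changes of -0.23 ± 0.21 (adjusted p = 0.386) and 0.24 ± 0.14 (adjusted p = 0.18). HIF1AN, which hydroxylates the α subunits at another site and blocks their coactivator, had 0.14 ± 0.05 in PC3 (adjusted p = 0.0332), compared with 0.01 ± 0.04 in DU145 cells (adjusted p = 0.917). P4HTM, a prolyl hydroxylase of the endoplasmic reticulum, rose by 0.62 ± 0.09 (adjusted p = 2.81e-05) and 0.77 ± 0.08 (adjusted p = 1.2e-10).

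The classical target CA9 (ENSG00000107159, chr9:35673856-35681159) was hardly read at all. It had 1, 1 and 0 counts in vehicle-treated and 0, 3 and 0 in pentamidine-treated PC3 cells, and 0, 2 and 1 and then 0, 0 and 0 in DU145 cells. No fold change is given for it, as every sample was at or below 3 counts. It was therefore not detectable at this depth in any group. CA9 also shares bases with ARHGEF39 on the other strand, which had a mean of 405 counts.

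NDRG1 (ENSG00000104419) was counted at 36, 24 and 22 reads in vehicle-treated and 72, 93 and 83 in pentamidine-treated PC3 cells. In DU145 cells it had 163, 224 and 144 counts with vehicle and 255, 264 and 243 with pentamidine. The groups did not overlap in either line, and all DU145 samples were above all PC3 samples. The log2 fold change was 1.60 ± 0.22 in PC3 and 0.49 ± 0.11 in DU145 cells, with a difference between the lines of 1.11 ± 0.26. This difference was 0.92 without vehicle sample 2 of DU145, 0.98 without vehicle sample 2 of PC3 and 0.99 without pentamidine sample 2 of PC3.

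A gene was called when its log2 fold change was beyond 1 in either direction with an adjusted p below 0.05 (edgeR). In PC3 cells, NDUFA4L2, EPAS1 and NDRG1 were past these limits, 3 of the 7 members with enough counts to be tested, all higher, where 3.44% of the genes tested were called higher and 1.31% lower. In DU145 cells, NDUFA4L2 and EPAS1 were past them, 2 of 7, where 1.37% were called higher and 0.657% lower. NDUFA4L2 passed the filter on low counts there through the pentamidine samples and had no value with at least 10 counts in every sample. The samples of the groups did not overlap for 5 of the 7 in PC3 and 6 of the 7 in DU145 cells, against 52.1% and 44% of the genes tested. NDUFA4L2 was selected on these comparisons and the other members were listed with their results known, so these counts are a description and nothing is read from the shares.

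With vehicle, PC3 and DU145 cells differed in level in several members. The comparison uses the same vehicle samples as those with pentamidine, and the low counts of NDUFA4L2 in vehicle-treated DU145 cells are part of the change it was selected on, so its value is given as a description. Its log2 fold change was 3.48 ± 0.66, from 2.92 to 4.32 as samples were left out, and the counts of 39 against 3 gave a ratio of 12.5 (exact 95% interval 3.99 to 63.4). It passed the filter on low counts through the PC3 samples and had no value with at least 10 counts in every sample. The other members were listed with their results known, so their values are also given as a description, without p-values. EPAS1 and NDRG1 were lower in PC3 cells, with log2 fold changes of -2.05 ± 0.12 and -2.77 ± 0.21. These were 2 calls lower among the 7 members with enough counts. Of the genes tested, 11.7% were called lower in PC3 cells and 7.52% higher, and nothing is read from these shares.

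The other members with enough counts to be tested were lower in PC3 cells by less than the limit for a call. EGLN3 and CA9 did not have enough counts. With no filter on low counts, 3 members were called lower and 1 higher. HIF1A had a log2 fold change of -0.91 ± 0.05, and ARNT had -0.47 ± 0.05. EGLN1 had -0.47 ± 0.08 and VHL -0.28 ± 0.05. With pentamidine, NDUFA4L2 was still higher in PC3 cells, with 272 against 50 counts and a ratio of 5.37 (exact 95% interval 3.96 to 7.41).

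The other genes of the pathway were followed in 5 lists of 89 genes, of which 83 were tested in PC3 and 82 in DU145 cells. At an adjusted p below 0.05, 30 were higher and 21 lower with pentamidine in PC3 cells, against 21.7% of all genes tested in each direction. In DU145 cells, 20 were higher and 28 lower, against 17.2% and 16.8%. The median log2 fold change of the lists was 0.096 in PC3 and -0.034 in DU145 cells, where that of all genes was 0.005 and 0.008. Calls with the limit on fold were fewer, 8 higher and 2 lower in PC3 cells, where 3.44% and 1.31% of all genes were called. In DU145 cells they were 3 higher and 1 lower, where 1.37% and 0.657% were called. Genes of the pathway thus moved in both directions. The lists were chosen with earlier results of these data known, so these counts are a description and nothing is read from the shares.

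The regulators other than members had no calls in either line. In PC3 cells, 8 of 14 tested were higher at an adjusted p below 0.05 and 1 lower (median log2 fold change 0.214). In DU145 cells 5 were higher and 2 lower (median 0.119). Of all genes, 21.7% were in each direction in PC3 cells, and 17.2% higher and 16.8% lower in DU145 cells. CITED2, which competes with the α subunits for the coactivator p300, rose by 0.78 ± 0.08 in PC3 (adjusted p = 3.05e-07), compared with 0.42 ± 0.06 in DU145 cells (adjusted p = 1.56e-08). Its relative CITED4 rose by 0.76 ± 0.07 in DU145 cells (adjusted p = 3.87e-13) and had -0.35 ± 0.22 in PC3 cells (adjusted p = 0.217), where vehicle sample 1 had 1474 counts and the other two 582 and 650. Without that sample the PC3 value was 0.18.

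**Figure D3:**
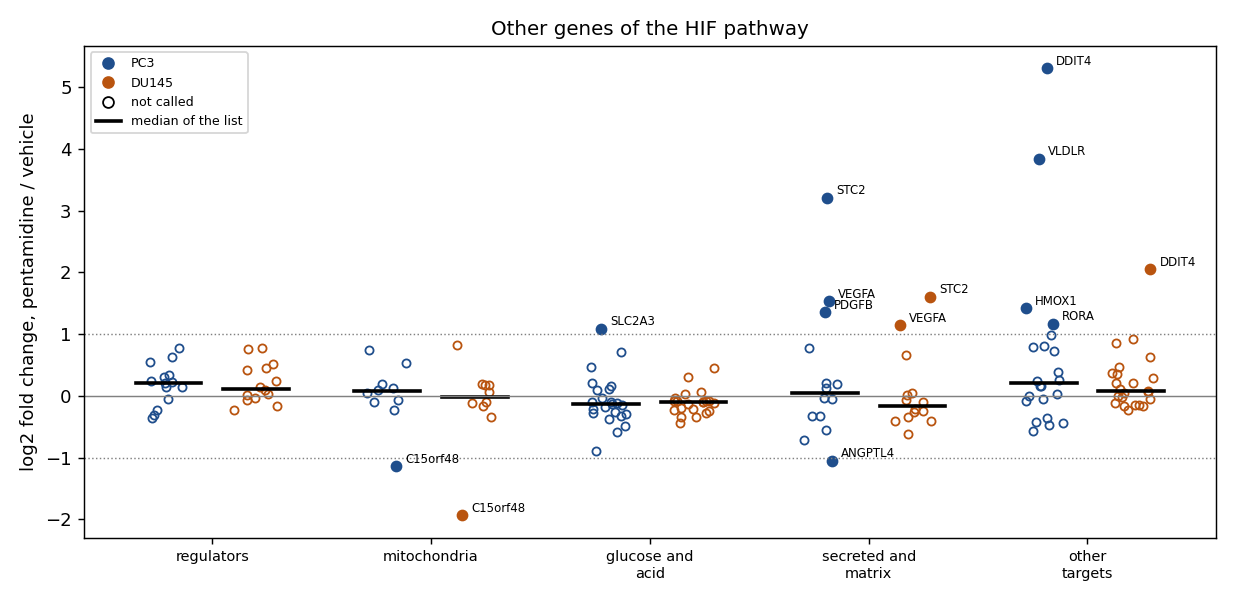
Log2 fold change with pentamidine (vertical axis) of each tested gene in the 5 lists of other HIF pathway genes (horizontal axis), in PC3 (blue) and DU145 cells (orange). Filled points are genes called at a log2 fold change beyond 1 and an adjusted p below 0.05 and are named, open points are the rest, black bars are list medians, and dotted lines mark 1 and -1. The list medians lie between -0.16 and 0.214, and DDIT4 at 5.30 in PC3 cells lies highest.

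The genes of glucose use and acid export, the list best known for HIF-1, were more often lower than higher. In PC3 cells, 11 of 23 tested were lower and 4 higher at an adjusted p below 0.05 (median log2 fold change -0.131). That compares with 21.7% of all genes in each direction. In DU145 cells 13 of 21 were lower and 2 higher (median -0.104), against 16.8% and 17.2% of all genes. With samples scaled by library size alone, 8 were lower and 3 higher. LDHA, which makes lactate from pyruvate, fell by 0.32 ± 0.05 on the log2 scale in PC3 (adjusted p = 3.61e-05), compared with 0.34 ± 0.03 in DU145 cells (adjusted p = 3.11e-15). PFKFB3, an activator of glycolysis, fell by 0.90 ± 0.05 (adjusted p = 9.5e-11) and 0.43 ± 0.03 (adjusted p = 1.82e-17). The glucose transporter SLC2A3 was the single call of the list, higher by 1.09 ± 0.16 in PC3 cells (adjusted p = 3.65e-05) and 0.95 without vehicle sample 1, and in DU145 cells it was at 0 to 2 counts.

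Of the mitochondrial targets, 3 of 10 were higher and 2 lower in PC3 cells, near the 21.7% of all genes in each direction. In DU145 cells 3 were higher and 3 lower, against 17.2% and 16.8%, and with 10 genes nothing is read from these counts. C15orf48, described above, was the single call in each line. The list medians were 0.072 and -0.019, and the PC3 median was -0.027 without vehicle sample 1.

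Genes of secreted proteins and matrix moved in both directions. In PC3 cells 6 of 14 were higher and 4 lower, against 21.7% of all genes in each direction. Of all genes, 3.44% were called higher and 1.31% lower, and in the list 3 higher and 1 lower. The median log2 fold change was 0.048, and it was 0.162 without vehicle sample 1, 0.016 without vehicle sample 3 and 0.104 without pentamidine sample 1. In DU145 cells 3 were higher and 7 lower (median -0.16), against 17.2% and 16.8% of all genes. The list had 2 calls higher, where 1.37% of all genes were called higher. VEGFA, the main growth factor of blood vessels, rose from 933–1032 to 2694–2929 counts in PC3 and from 482–543 to 1115–1256 in DU145 cells. Its log2 fold changes were 1.53 ± 0.05 (adjusted p = 3.46e-13) and 1.14 ± 0.06 (adjusted p = 4.3e-24). STC2, a secreted glycoprotein, rose by 3.20 ± 0.06 (adjusted p = 1.82e-17) and 1.60 ± 0.05 (adjusted p = 6.79e-32).

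In PC3 cells the growth factor PDGFB rose by 1.35 ± 0.11 on the log2 scale (adjusted p = 4.45e-08), and in DU145 cells by 0.66 ± 0.07 (adjusted p = 6.77e-11). ANGPTL4, an inhibitor of lipoprotein lipase and the single call lower in the list, fell by 1.05 ± 0.06 in PC3 (adjusted p = 2.13e-10), compared with 0.34 ± 0.04 in DU145 cells (adjusted p = 5.67e-09).

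Among the remaining targets in PC3 cells, 9 of 22 were higher and 3 lower, against 21.7% of all genes in each direction. The median log2 fold change of the list was 0.2. In DU145 cells 7 of 23 were higher and 3 lower (median 0.079), against 17.2% and 16.8% of all genes. DDIT4, an inhibitor of the growth kinase mTORC1, had the highest fold change of the lists, from 99–117 to 4204–4317 counts in PC3 and from 370–424 to 1621–1778 in DU145 cells. It rose by 5.30 ± 0.08 (adjusted p = 1.99e-18) and 2.05 ± 0.06 (adjusted p = 1.33e-34). The lipoprotein receptor VLDLR rose by 3.84 ± 0.23 in PC3 cells (adjusted p = 4.51e-10), from 7–14 to 123–153 counts, and had 0.86 ± 0.47 in DU145 cells (adjusted p = 0.16).

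HMOX1, which breaks down haem, rose by 1.42 ± 0.05 on the log2 scale in PC3 (adjusted p = 7.65e-13), compared with 0.37 ± 0.03 in DU145 cells (adjusted p = 7.42e-15). The nuclear receptor RORA, at 10 to 40 counts, rose by 1.16 ± 0.32 in PC3 cells (adjusted p = 0.00716) or 0.98 without vehicle sample 3, and had 0.06 ± 0.25 in DU145 cells (adjusted p = 0.882). In the test of the difference between the lines, 5 genes of the lists were called with a higher effect in PC3 cells and 1 with a lower effect, out of 84 tested, where 2.62% of all genes were called in either direction.

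**Figure D4:**
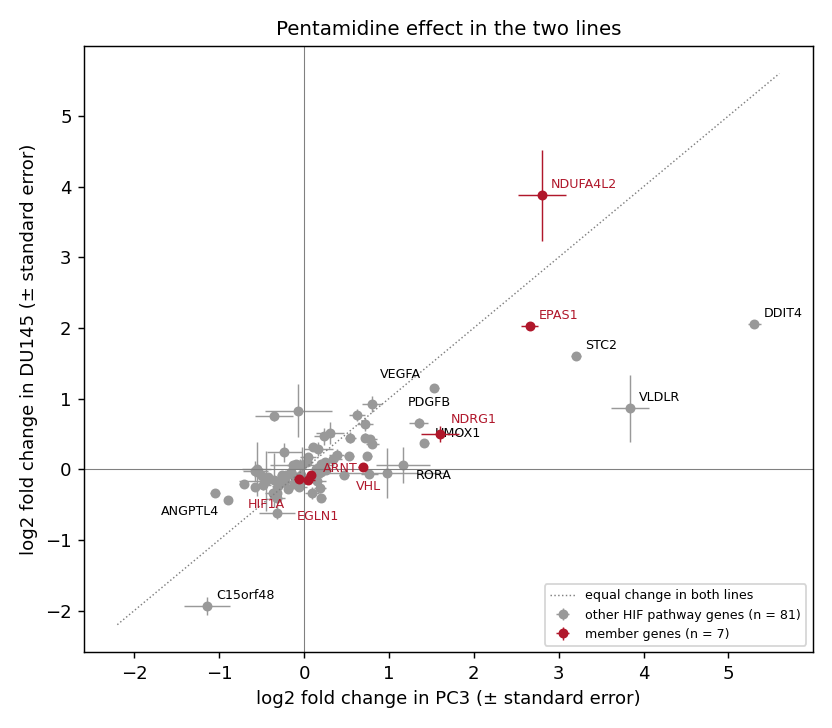
Log2 fold change with pentamidine in PC3 (horizontal axis) and DU145 cells (vertical axis), each with its standard error, for the 7 members tested (red) and 81 other HIF pathway genes tested in both lines (grey). The dotted line marks an equal change. NDUFA4L2 lies above the line (2.80 in PC3 and 3.87 in DU145 cells), whereas EPAS1, NDRG1, STC2, VLDLR and DDIT4 lie below it.

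The genes whose pattern was most like that of NDUFA4L2 were ranked by Pearson's r of log2 CPM over the 12 samples, among 14262 genes with a mean of at least 10 counts. The top 8 were KRT80 (0.988), CCNL2 (0.979), AARS (0.977), DNASE2 (0.977), CBX7 (0.976), KRCC1 (0.975), SLC7A11 (0.974) and TIMM44 (0.974), and 2 of them were also among the top 8 by Spearman's rho. These values describe 4 groups of 3 samples that share lines and treatments. KRT80, a keratin, had 61.7 ± 1.83 CPM in vehicle-treated and 117 ± 3.22 in pentamidine-treated PC3 cells, and 31.7 ± 1.84 and 62.8 ± 1.98 in DU145 cells. SLC7A11, which imports cystine, went from 71.2 ± 7.20 to 257 ± 14.4 CPM and from 21.9 ± 2.03 to 94.0 ± 1.73. Both were higher in PC3 than in DU145 cells with vehicle and higher with pentamidine in each line, as was NDUFA4L2. VEGFA of the pathway lists, named after its value was seen, was at rank 10 (0.972) and STC2 at rank 38 (0.956). By Spearman's rho, VEGFA was at rank 145 and STC2 at rank 302. DDIT4, with the highest fold change of the lists, was at rank 3062 by Pearson's r (0.619). Among the members, r was 0.61 for VHL, 0.21 for EPAS1, -0.25 for NDRG1, -0.66 for ARNT, -0.69 for EGLN1 and -0.74 for HIF1A.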

How the data were processed

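mRNA was sequenced in 12 samples of 2 cell lines. The authors enriched poly(A) RNA with Oligo(dT), aligned reads with HISAT2 (2.1.0, GRCh38, per the submitters' processing notes) and deposited raw counts per gene as whole numbers. The counting program and its strand setting are not given in the sources used here. A further table, named for FPKM, holds CPM values and was not used. The authors' tables of log2 fold changes, p-values and adjusted p-values, made with DESeq (1.18.1), were not used either. Of the count table's lines, 44 were broken text and were left out, and 33595 entries were merged into 32077 genes. Positions are the deposited ones. GENCODE 29 held 31961 of the genes, 30950 at the same position. RPKM values used exon lengths from GENCODE 29, and CPM values used edgeR's library factors. Total counts of 13514195 to 15131436 set the precision, and 3 counts were taken as the detection limit.

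Genes were tested with edgeR's quasi-likelihood test (4.0.16, R 4.3.3), TMM factors and a filterByExpr minimum of 10 counts, with p-values adjusted over all genes tested after Benjamini and Hochberg, in 6 samples per comparison and in 12 for the difference between the lines. DESeq2 (1.42.0), RLE factors, library size alone, scaling without mitochondria-encoded genes, other count filters, a replicate block, 1 fit of all samples, the adjusted p alone and leaving out each sample were the alternatives. The scripts were tested on simulated data. Samples with the same number did not deviate together (r from -0.0733 to 0.0388), so no pairing was used. The members and lists were chosen with earlier results of these data known. The text names all members, their paralogues and relatives, the neighbours tested within 100 kb, all markers, the 8 genes most like NDUFA4L2 and, per list, genes called in both lines and the 4 called genes of largest change per line without overlap between groups, or the 2 of smallest p where none was called. Of the listed or marker genes, 3 were not analysed here and another is not reported here.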

Additional observations from a re-analysis of the deposited data

Results flagged for a closer look

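The effect of pentamidine differed between the lines for 6 named genes of the pathway, by the interaction term of edgeR's fit over all 12 samples. As PC3 effect minus DU145 effect on the log2 scale, the value was 3.25 for DDIT4 (adjusted p = 1.07e-17), 2.98 for VLDLR (adjusted p = 0.000844), 1.60 for STC2 (adjusted p = 1.48e-14) and 1.04 for HMOX1 (adjusted p = 4.5e-13). It was 1.10 for RORA, with an adjusted p of 0.04999 that passed the threshold narrowly. It was -1.11 for CITED4 (adjusted p = 0.0042), and -0.57 without the vehicle-treated PC3 sample 1, where it lost the call. The CITED4 call was also lost by DESeq2 (-1.10) and without the vehicle-treated DU145 sample 1 (-0.99), and that of HMOX1 when samples were scaled by library size alone (0.97). RORA lost its call under most alternatives, among them DESeq2 (1.12).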

How the results depend on the processing

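Among 424 values of the members under the alternatives, 420 kept their direction and side of the threshold. The exceptions were the change of NDRG1 between the lines, given with the report, and EGLN1 in PC3 cells, which ranged from -0.046 to 0.15 as samples were left out and was below 0 without vehicle sample 3. When every sample had to hold at least 10 counts, NDUFA4L2 had no value in DU145 cells or in the comparisons of the lines, since its DU145 vehicle samples have fewer. That filter left 1 member called in DU145 cells. It also left 431 of 658 genes called in PC3, 154 of 290 in DU145, 1432 of 2768 between the vehicle-treated lines and 251 of 399 for the difference in effect, with fewer genes tested. With the adjusted p alone, 6010, 4860, 9405 and 3112 genes and 4, 5, 7 and 3 members passed. Leaving out 1 sample gave 0 to 1 members called for the difference in effect.

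The other pathway genes kept direction and side in 905 values, and 25 lost a call, 6 gained one and 7 changed sign. As samples were left out, CITED4 in PC3 ranged from -0.62 to 0.18 (above 0 without vehicle sample 1). In DU145, RORA ranged from -0.064 to 0.15, below 0 without vehicle sample 3 (-0.064) or pentamidine sample 3 (-0.060). The LDHA difference in effect ranged from -0.0047 to 0.047, with -0.0047 without vehicle sample 1 and -0.0032 without pentamidine sample 2 of PC3, and was -0.047 by library size alone. P4HTM between the lines was 0.013 by library size alone. The cause was not tested.

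With the replicate number as a block, 648, 285, 2773 and 362 genes were called and the log2 fold change of NDUFA4L2 was 2.79 in PC3 and 3.87 in DU145 cells. The block changed the call of no member. For the RORA difference it gave 1.11, no longer past the threshold. Of the medians of the 5 lists, 220 values moved by less than 1 SD between replicates and 85 by more. In low counts, depth limits NDUFA4L2 in vehicle-treated DU145 cells, EGLN3 and CA9.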
